A study of Mus musculus with 9 samples.

Results

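The interferon regulatory factors are a family of transcription factors that was followed here in mouse peritoneal macrophages after injection of interferon. The members were Irf1, Irf2, Irf3, Irf4, Irf5, Irf7, Irf8 and Irf9, chosen by family and symbol, with earlier results of these data known. Each was read at the brightest probe set that carries its symbol alone, and Irf1 also at a dimmer probe set. All 8 had a value, among 19752 genes on the array. RNA came from male C57BL/6 mice of 6 weeks. Mice of the IFNa group (n = 4) had received 10000 U of recombinant interferon alpha under the skin, and mice of the IFNg group (n = 2) 8000 U of recombinant interferon gamma, in each case 2 h before peritoneal cells were collected. The untreated group (n = 3) is labelled as having no treatment. No vehicle-injected mice were among the samples used, so effects of the interferon and of the injection cannot be told apart in a comparison with untreated. Treated cells carry the label F4/80+ ICAM2+ and untreated cells the label F4/80+, and the series text gives F4/80+ ICAM+ sorted in 2 rounds on a FACSAria. The labels do not say whether each array holds a separate mouse, so p-values measure the spread between these samples.

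Interferon regulatory factors share a DNA-binding domain that recognises GAAA repeats, found in the interferon-stimulated response element. Interferon alpha acts through ISGF3, a complex in which IRF9 binds the DNA, whereas interferon gamma acts mainly through the gamma-activated site. Several of the factors are themselves products of interferon-stimulated genes, and IRF8 is a lineage factor of macrophages and monocytes even before any stimulus.

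Promoter sequence is shown for the 3 members with called differences (Irf1, Irf7 and Irf8) and for Irf2, the single member that held both motifs. The sequences are RefSeq's on GRCm38.p6 and run 5′ to 3′ over the 250 bases before the annotated start. The Irf1 promoter lies at chr11:53769764-53770013 on the plus strand, Irf8 at chr8:120736108-120736357 on the plus strand, Irf7 at chr7:141266425-141266674 on the minus strand and Irf2 at chr8:46739495-46739744 on the plus strand. Capitals mark matches to the core of the interferon-stimulated response element, GAAA followed by any 2 bases and GAAA again, or to the gamma-activated site, TTCNNNGAA.
Irf1: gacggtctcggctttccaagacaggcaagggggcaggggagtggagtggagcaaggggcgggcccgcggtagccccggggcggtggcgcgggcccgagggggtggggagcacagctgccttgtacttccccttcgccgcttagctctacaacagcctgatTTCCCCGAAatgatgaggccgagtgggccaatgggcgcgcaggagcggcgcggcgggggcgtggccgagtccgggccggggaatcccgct
Irf8: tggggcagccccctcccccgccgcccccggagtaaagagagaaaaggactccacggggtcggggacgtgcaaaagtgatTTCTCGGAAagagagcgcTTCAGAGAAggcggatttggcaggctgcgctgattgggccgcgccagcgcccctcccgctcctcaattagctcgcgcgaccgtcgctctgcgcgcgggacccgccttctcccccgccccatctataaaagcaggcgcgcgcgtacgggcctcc
Irf7: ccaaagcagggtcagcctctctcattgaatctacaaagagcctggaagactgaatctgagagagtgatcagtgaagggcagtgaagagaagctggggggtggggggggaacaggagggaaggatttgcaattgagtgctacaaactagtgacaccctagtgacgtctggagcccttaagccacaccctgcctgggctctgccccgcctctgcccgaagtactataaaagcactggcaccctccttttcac
Irf2: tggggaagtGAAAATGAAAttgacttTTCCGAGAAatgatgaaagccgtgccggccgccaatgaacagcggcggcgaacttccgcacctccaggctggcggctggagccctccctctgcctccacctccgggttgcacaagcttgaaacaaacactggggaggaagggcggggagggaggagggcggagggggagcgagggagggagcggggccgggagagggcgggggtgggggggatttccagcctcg
Both strands were searched in windows that reached 50 bases past the start, and the motifs did not overlap each other. Irf1 held the gamma-activated site TTCCCCGAA 90 to 82 bases upstream of its start. Irf8 held TTCTCGGAA 171 to 163 bases upstream and TTCAGAGAA 153 to 145 bases upstream. Irf2 held TTCCGAGAA 224 to 216 bases upstream and GAAAATGAAA 241 to 232 bases upstream. Of the 8 members, 3 thus had TTCNNNGAA in a window, a motif found for 9.55% of the 27025 genes with a window, and 1 had the response element core, found for 3.99%. For Irf1, Irf8 and Irf9 a second annotated start was searched as well, and no match was found there. No match was found for Irf3, Irf4, Irf5, Irf7 and Irf9, which says only that these letters are not in the windows.

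The deposited values are array intensities, of which the log2 was compared, and differences below are on the log2 scale with standard errors. Differences were fitted over all 9 arrays with limma, and a gene was called at a Benjamini-Hochberg adjusted p under 0.05 over all 19752 genes. Array medians lay between 162 and 178. The array of untreated replicate 1 and that of IFNa replicate 4 had a narrow intensity range, with quartiles 2.27 and 2.16 log2 units apart against 2.68 to 3.03 on the other 7. Large peritoneal macrophage markers were bright on all arrays, among them Adgre1 (F4/80) at 7782 to 9125 and Icam2 at 2489 to 3873.

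On untreated replicate 1 every one of the 8 members, read at its brightest probe set, was at its lowest level among the untreated arrays. The distance of that array from the mean of the other untreated arrays ran from -0.16 for Irf3 to -1.16 for Irf7. The dimmer probe set of Irf1 went the other way and was highest on that array, at 201 against 189 and 127. Over all genes 40.9% were lowest on that array, but among the 5470 genes whose mean intensity lay within the range of the members the share was 84.6%. After quantile normalization the array was lowest for 5 of the 8 members, with distances from 0.28 for Irf3 to -0.84 for Irf7. Differences of the members from untreated are therefore also given without both narrow arrays.

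Irf1, an activator of antigen presentation and chemokine genes, rose after both interferons. Its intensity was 358, 660 and 716 in the untreated samples. After IFNa it was 2809, 2823, 2861 and 3073, and after IFNg it was 6083 and 6398. The 3 groups did not overlap, and the IFNg arrays stood highest. The rise was 2.39 ± 0.21 after IFNa (5.23-fold, limma adjusted p = 1.65e-04) and 3.50 ± 0.26 after IFNg (11.3-fold, limma adjusted p = 1.25e-04). Without the narrow arrays the rises were 2.04 and 3.18, and both were called in all 20 alternative analyses. In the direct comparison the level was 2.16-fold higher after IFNg, a difference of -1.11 ± 0.24 for IFNa minus IFNg (95% interval -1.65 to -0.57) that did not pass (limma adjusted p = 0.0871). That difference passed in 4 of the 20 alternatives and failed in the other 16. Among the 4 were those without untreated replicate 1 (adjusted p = 0.00165), which enters this comparison through the shared spread, and without both narrow arrays (adjusted p = 5.94e-04).

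The dimmer probe set of Irf1 gave smaller differences. It read 201, 189 and 127 in the untreated samples. After IFNa it read 238, 238, 265 and 221, and after IFNg 400 and 472. All treated arrays again lay above all untreated arrays. Adjusted over the 21425 probe sets with a single symbol, the rise of 1.36 ± 0.20 after IFNg passed (limma adjusted p = 0.00901), and the 0.51 ± 0.17 after IFNa did not (limma adjusted p = 0.208). With either IFNg array left out the first call was lost (adjusted p = 0.0776 without IFNg replicate 1 and 0.139 without IFNg replicate 2). Without both narrow arrays the dimmer probe set gave 1.49 after IFNg (limma adjusted p = 0.00562) and 0.67 after IFNa (limma adjusted p = 0.0661). The 2 probe sets correlated at r = 0.803 over the 9 arrays, which share their treatment groups.

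**Figure D1:**
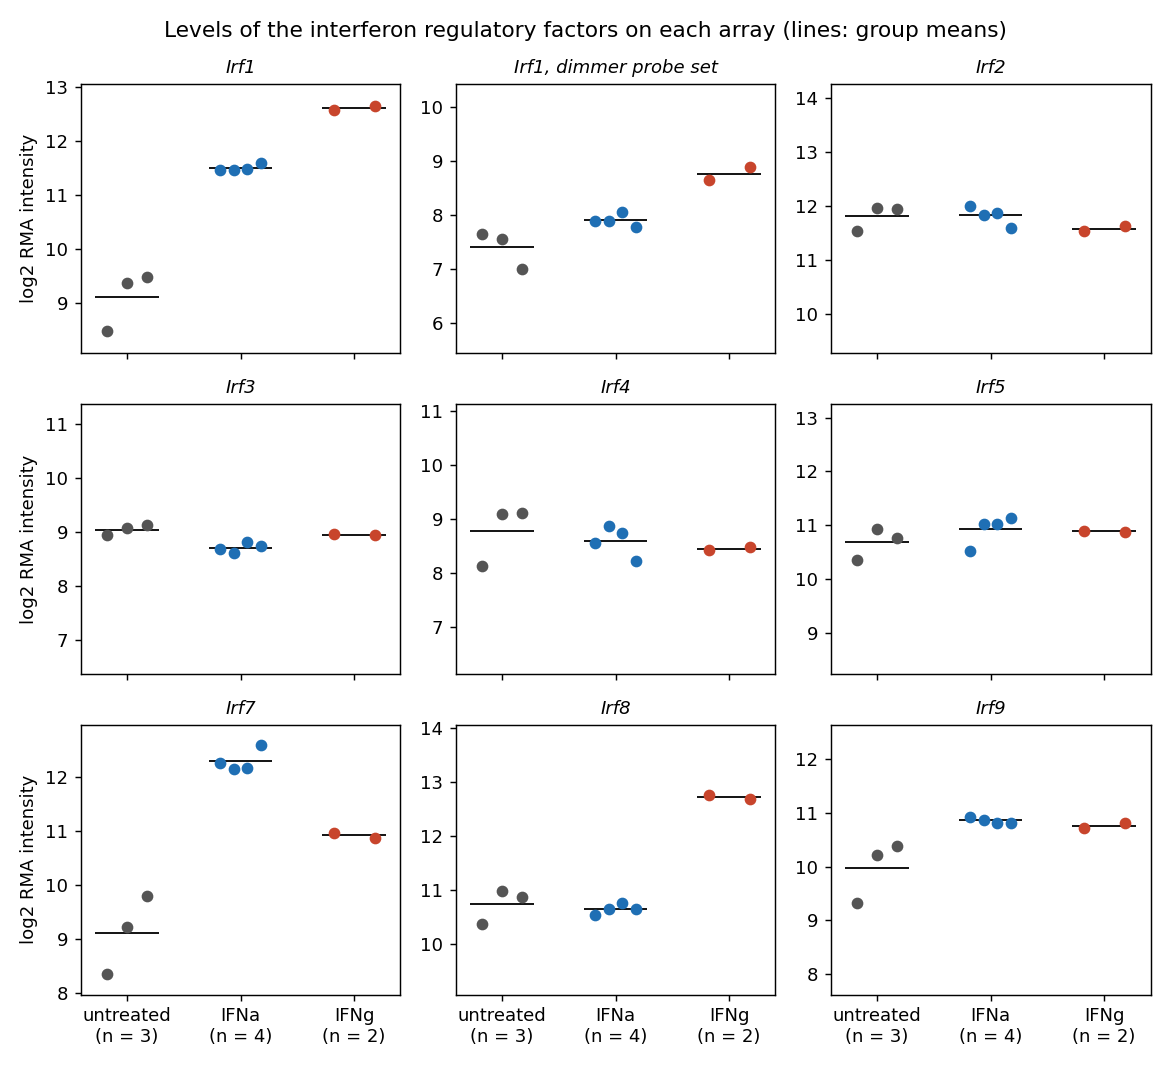
Level of each interferon regulatory factor on each array as log2 intensity, 1 panel per probe set with the same span of the vertical axis, for untreated (n = 3), IFNa (n = 4) and IFNg (n = 2) samples. Points are arrays and lines are group means. Irf1 was highest after IFNg (6083 and 6398 before the log), Irf7 after IFNa (4552 to 6191), and Irf8 stood apart after IFNg alone (6541 and 6916).

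Irf7, the factor that drives transcription of the many interferon alpha genes and is itself a known target of ISGF3, rose after both interferons. Its intensity was 325, 594 and 885 in the untreated samples. After IFNa it was 4926, 4552, 4584 and 6191, and after IFNg it was 2008 and 1877. The groups did not overlap, and the order of Irf1 was turned round, with IFNa above IFNg. The rise was 3.18 ± 0.28 after IFNa (9.05-fold, limma adjusted p = 1.65e-04), was called in all 20 alternatives and was 2.69 without the narrow arrays. After IFNg it was 1.81 ± 0.34 (3.50-fold, limma adjusted p = 0.0333), a call kept in 11 of the 20 alternatives. The call after IFNg was lost when either IFNg array was left out (adjusted p = 0.326 without replicate 1 and 0.236 without replicate 2), and without untreated replicate 2 (0.114) or IFNa replicates 1, 2 or 3 (0.0684, 0.0607 and 0.0597). It was also lost with only the 2 groups in the fit (0.203) and after median centring (0.0572), and it held without the narrow arrays (1.42, adjusted p = 0.00501). The level was 2.59-fold higher after IFNa than after IFNg, a difference of 1.37 ± 0.32 (95% interval 0.65 to 2.09) that did not pass (limma adjusted p = 0.115). That difference passed in 5 of the 20 alternatives and failed in the other 15. It passed without untreated replicate 1 (adjusted p = 0.0112), without untreated replicate 3 (0.0418) and without both narrow arrays (0.0051), among others.

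Irf9, the DNA-binding subunit of ISGF3, stood higher on all treated arrays, and its difference from untreated did not pass the test after either interferon. Its intensity was 642, 1188 and 1334 in the untreated samples. The IFNa arrays gave 1943, 1868, 1797 and 1802, and the IFNg arrays 1683 and 1787. All treated arrays lay above all untreated arrays, while the treated groups lay side by side. The difference was 0.88 ± 0.22 after IFNa (95% interval 0.39 to 1.37, limma adjusted p = 0.0801) and 0.79 ± 0.26 after IFNg (95% interval 0.20 to 1.37, limma adjusted p = 0.372). Between the interferons it was 0.09 ± 0.25 (95% interval -0.46 to 0.65, limma adjusted p = 0.892). Without both narrow arrays the difference after IFNg was 0.46 and did not pass (limma adjusted p = 0.0686). The IFNa difference passed in 5 of 20 alternatives, among them without untreated replicate 1 (0.56, adjusted p = 0.0318), without untreated replicate 3 (1.08, adjusted p = 0.0412), without both narrow arrays (0.57, adjusted p = 0.0127) and after quantile normalization (0.77, adjusted p = 0.0132).

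Irf8, a factor of monocyte and macrophage identity that binds DNA together with PU.1, rose after IFNg. Its intensity was 1310, 2019 and 1860 in the untreated samples. After IFNa it was 1475, 1591, 1720 and 1602, inside the untreated range on every array, and after IFNg it was 6916 and 6541. Both IFNg arrays were more than 3-fold above every other array. The rise was 1.98 ± 0.18 after IFNg (3.95-fold, limma adjusted p = 5.32e-04). After IFNa the difference was -0.09 ± 0.15 (95% interval -0.44 to 0.25, limma adjusted p = 0.93), and it was -0.28 without the narrow arrays. The direct comparison called the difference between the interferons, with a level 4.22-fold higher after IFNg (-2.08 ± 0.17 for IFNa minus IFNg, limma adjusted p = 5.06e-04). The rise after IFNg and the direct difference were called in all 20 alternatives each, and were 1.80 and -2.08 without the narrow arrays.

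Irf4, the close relative of Irf8 that acts in lymphocytes and in alternatively activated macrophages, did not pass in any of the 3 comparisons. Its intensity was 280, 543 and 554 in the untreated samples. The IFNa arrays gave 372, 467, 427 and 298, and the IFNg arrays 344 and 354. All treated arrays lay between the low untreated replicate 1 and the other untreated arrays. The difference was -0.18 ± 0.25 after IFNa (95% interval -0.74 to 0.37, limma adjusted p = 0.911) and -0.33 ± 0.30 after IFNg (95% interval -0.99 to 0.33, limma adjusted p = 0.776). Between the interferons it was 0.15 ± 0.28 (95% interval -0.48 to 0.77). Without both narrow arrays the value after IFNa was -0.38 and did not pass (limma adjusted p = 0.0937). In that setting the value after IFNg was -0.65 and passed (limma adjusted p = 0.0329). With untreated replicate 1 alone left out no Irf4 difference passed.

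Irf3, present in resting cells and activated by phosphorylation downstream of nucleic acid sensors, was lower on all 4 IFNa arrays than on any other array. Its intensity was 489, 535 and 560 in the untreated samples. The IFNa arrays gave 411, 388, 450 and 425, and the IFNg arrays 496 and 492. The step was small, at -0.34 ± 0.11 after IFNa (95% interval -0.57 to -0.10), and did not pass (limma adjusted p = 0.181) there or in any of the 20 alternatives, where the adjusted p was between 0.0519 and 0.53. After IFNg the difference was -0.09 ± 0.13 (95% interval -0.38 to 0.19, limma adjusted p = 0.83). Without the narrow arrays the differences were -0.40 after IFNa and -0.15 after IFNg.

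Irf5, which acts downstream of Toll-like receptors and MyD88 to drive inflammatory cytokine genes, did not pass in any comparison. Its intensity was 1305, 1967 and 1735 in the untreated samples. On the IFNa arrays it was 1481, 2075, 2095 and 2258, and on the IFNg arrays 1917 and 1882. The 3 groups overlapped. The differences were 0.25 ± 0.18 after IFNa (95% interval -0.16 to 0.65, limma adjusted p = 0.759) and 0.21 ± 0.22 after IFNg (95% interval -0.28 to 0.69, limma adjusted p = 0.796), and without the narrow arrays they were 0.01 and 0.04.

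Irf2, which competes with IRF1 for its binding sites and can also activate genes, did not pass in any comparison. Its intensity was 2978, 3996 and 3929 in the untreated samples. After IFNa it was 4107, 3668, 3769 and 3102, and after IFNg it was 2969 and 3162. The groups overlapped, with both IFNg arrays near the lower end. The difference was 0.02 ± 0.14 after IFNa (95% interval -0.31 to 0.34, limma adjusted p = 0.99) and -0.23 ± 0.17 after IFNg (95% interval -0.62 to 0.15, limma adjusted p = 0.743). The sign of the IFNa value turned under quantile normalization (-0.09) and without the narrow arrays (-0.04). Without the narrow arrays the IFNg value was -0.37 and did not pass (limma adjusted p = 0.132).

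**Figure D2:**
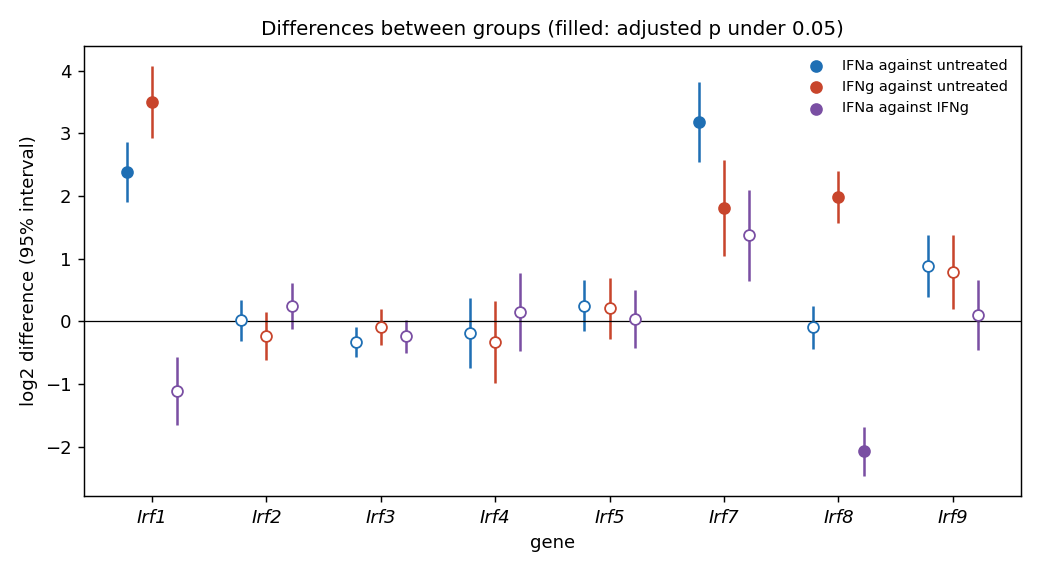
Log2 difference of each interferon regulatory factor in the 3 comparisons with its 95% interval, filled where the limma adjusted p was under 0.05. After IFNa, Irf1 (2.39) and Irf7 (3.18) were called. After IFNg, Irf1 (3.50), Irf7 (1.81) and Irf8 (1.98) were called, and Irf8 (-2.08) was the single call between the interferons.

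In counts, 2 of the 8 members were called after IFNa, both higher, beside 2.65% of all genes called (1.79% higher and 0.856% lower). After IFNg 3 of 8 were called, all higher, beside 1.35% of all genes (1.24% higher and 0.111% lower). Between the interferons 1 of 8 was called, lower after IFNa than after IFNg, beside 0.977% of all genes (0.44% higher and 0.537% lower). The median difference of the members was 0.13 after IFNa (all genes -0.02), 0.50 after IFNg (all genes -0.06) and 0.07 between the interferons (all genes 0.03). The 2 comparisons with untreated share the untreated arrays. Without the narrow arrays the counts were 3 higher after IFNa (Irf9 in addition), 3 higher and 1 lower after IFNg (Irf4), and 1 higher (Irf7) and 2 lower (Irf1 and Irf8) between the interferons. Of all genes tested, that setting called 5.6% after IFNa, 2.55% after IFNg and 2.74% between the interferons.

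Groups without overlap were more common. After IFNa 4 of 8 did not overlap with untreated, beside 10.4% of all genes, of which 3 lay wholly above (3.68% of all genes) and 1 below (6.75%). After IFNg 4 of 8 did not overlap, beside 27.8% of all genes, and all 4 lay above (12.3%) and none below (15.5%). Between the interferons 5 of 8 did not overlap, beside 28.4% of all genes. Of these, 2 members, Irf7 and Irf9, lay wholly higher after IFNa (12.8%) and 3, Irf1, Irf3 and Irf8, wholly higher after IFNg (15.6%).

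The partners of the factors were read from lists. Of the 10 STAT and receptor genes 9 had a value. After IFNa 2 of the 9 rose, Stat2 (3.07 ± 0.15, limma adjusted p = 3.68e-06), the ISGF3 subunit, and the kinase gene Jak2 (1.10 ± 0.22, limma adjusted p = 0.0318), and after IFNg Stat2 alone (2.50 ± 0.18, limma adjusted p = 1.21e-04). The Jak2 call held in 3 of the 9 analyses that left out 1 array, those without untreated replicates 1 or 3 or IFNa replicate 4, and the adjusted p was at most 0.0962 in the others. The list's median was 0.02 after IFNa and 0.12 after IFNg, and without the narrow arrays Ifngr2 was called lower after IFNa (-0.68, adjusted p = 0.0166) and Stat3 higher after IFNg (0.81, adjusted p = 0.0428). Stat2 on the untreated arrays ran from 307 to 477, below its range of 3040 to 3510 after IFNa and of 2083 to 2331 after IFNg.

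Kinases and adaptors that activate IRF3, IRF5 and IRF7 were read next. The share of all genes called was 2.65% after IFNa, 1.35% after IFNg and 0.977% between the interferons. After IFNa 2 of 16 rose (median 0.13), the adaptor gene Azi2 (1.09 ± 0.17, limma adjusted p = 0.00739) and Myd88 (1.43 ± 0.31, limma adjusted p = 0.0459), and after IFNg 1 of 16 (median 0.21), Sting1 (2.16 ± 0.34, limma adjusted p = 0.0142), the adaptor of cytosolic DNA sensing. Between the interferons 2 were higher after IFNg, Sting1 (-1.89) and Tbkbp1 (-0.80), each called in 3 of the 9 analyses that left out 1 array. The Sting1 rise was lost without either IFNg array (adjusted p = 0.211 without replicate 1), and Myd88 was called in 2 of the 9 analyses that left out 1 array, those without untreated replicate 1 or 3. With the narrow arrays left out, the calls were 2 higher and 1 lower after IFNa and 3 higher and 1 lower after IFNg.

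Among 14 DNA-binding partners of IRF4 and IRF8, the AP-1 family gene Batf2 rose after both interferons, by 1.57 ± 0.19 after IFNa (limma adjusted p = 0.00136) and by 3.36 ± 0.23 after IFNg (limma adjusted p = 7.63e-05). Its level was higher after IFNg than after IFNa (-1.79 ± 0.22, limma adjusted p = 0.00421), a call lost without IFNg replicate 1 (adjusted p = 0.0967). The related gene Batf was also higher after IFNg than after IFNa (-0.83 ± 0.14, limma adjusted p = 0.0187), which was called in 5 of the 9 analyses that left out 1 array. It was not called when IFNa replicate 2, IFNa replicate 3, IFNg replicate 1 or IFNg replicate 2 was left out, where the adjusted p reached 0.304. Jund, Tcf3 and Cebpa were lower after IFNa (-0.61, -0.57 and -0.93), and none of the 3 was called without untreated replicate 2. Tcf3 and Cebpa were also lost without untreated replicate 3, IFNa replicates 1 to 3 and either IFNg array, at an adjusted p of at most 0.132 and 0.244 over these analyses. Spi1, which encodes PU.1, read 3586 to 5125 in untreated samples, 3622 to 4299 after IFNa and 4509 to 4705 after IFNg, with differences of -0.19 ± 0.14 and 0.05 ± 0.17 that did not pass (limma adjusted p = 0.764 and 0.929). With the narrow arrays left out, Spi1 was called lower after IFNa (-0.39, adjusted p = 0.0474), and the calls of this list numbered 1 higher and 5 lower after IFNa and 2 higher and 1 lower after IFNg. The list's median was -0.21 after IFNa and -0.03 after IFNg. In limma none of the 3 corepressors that bind IRF2 was called in any of the 3 comparisons, where an unadjusted p under 0.05 was reached by 2 after IFNa, 1 after IFNg and 0 between the interferons (median -0.57 after IFNa and -0.39 after IFNg). Without the narrow arrays Irf2bp1 was called lower after IFNa (-0.71, adjusted p = 0.00813) and after IFNg (-0.58, adjusted p = 0.0423), and 1 of the 3 was called lower after IFNa without untreated replicate 1 alone. Of 8 regulators of IRF protein level, Trim21, a ubiquitin ligase for several of the factors, rose after IFNa (1.96 ± 0.13) and after IFNg (1.79 ± 0.15), and the list's median was -0.06 and 0.07.

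The interferon genes, some of which IRF3 and IRF7 are known to drive, were not called. Of 19 type I and type II genes 15 had a value, and none passed in limma in any of the 3 comparisons (medians 0.06 after IFNa and -0.21 after IFNg). An unadjusted p under 0.05 was reached by 0, 2 and 0 of them after IFNa, after IFNg and between the interferons. The dimmest of them read 17.9 to 19.7 in untreated samples, under the 5th percentile of those arrays (24.1 to 27.9). Ifnb1 read 57.2 to 66.0 in untreated samples, 59.5 to 81.4 after IFNa and 57.2 to 61.2 after IFNg. Its differences were 0.08 ± 0.14 and -0.05 ± 0.16 (limma adjusted p = 0.937 and 0.922), and the sign turned in some alternatives, as it did after IFNg under quantile normalization (0.06).

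Known targets of ISGF3 all rose after IFNa. All 16 with a value, Irf7 among them, were called (median 4.16), with Ifit3 at 6.39 ± 0.19 and Ifit2 at 5.60 ± 0.16, RNA-binding antiviral genes, and Rsad2, the gene of viperin, at 5.68 ± 0.23. After IFNg 9 of 16 rose (median 1.44), with Oas2 at 1.57 ± 0.15 (limma adjusted p = 5.66e-04) and Usp18, the gene of a feedback inhibitor, at 2.40 ± 0.32 (limma adjusted p = 0.00545), which was lost without either IFNg array (adjusted p of at most 0.0967). Ifit2 and Rsad2 were not among them, with differences of 0.39 ± 0.19 and 0.29 ± 0.28 (limma adjusted p = 0.654 and 0.782). The direct comparison called 11 of 16 higher after IFNa (median 2.77) and none lower. The count of 9 after IFNg fell to 1 without IFNg replicate 1, to 3 without IFNg replicate 2 and to 5 without untreated replicate 2, and was 11 without the narrow arrays.

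Known targets of IRF1 were called after both interferons. After IFNa 11 of 23 were called (median 0.87), and after IFNg 13 of 23 (median 1.38), and none fell. Gbp5, an interferon-inducible GTPase gene, rose by 3.72 ± 0.16 and 4.21 ± 0.19, Cd274, the gene of the inhibitory ligand PD-L1, by 3.40 ± 0.22 and 4.13 ± 0.27, Tap1, a peptide transporter gene, by 1.74 ± 0.12 and 2.23 ± 0.15, and the chemokine gene Cxcl10 by 5.47 ± 0.21 and 4.79 ± 0.25. Between the interferons 2 of 23 were called, both higher after IFNg. Cxcl9, another chemokine gene, read 98.9 to 146 in untreated samples, 131 to 161 after IFNa and 2068 to 2854 after IFNg (-4.07 ± 0.19 for IFNa minus IFNg, limma adjusted p = 1.11e-05). Ciita, the master regulator of MHC class II genes, read 120 to 152, 123 to 161 and 433 to 478 in the same order (-1.64 ± 0.15, limma adjusted p = 7.81e-04). Without the narrow arrays 5 were called, with Tap1 (-0.55) and the feedback inhibitor gene Socs1 (-1.86) also higher after IFNg and the cytokine gene Il15 (1.21) higher after IFNa. For Cxcl9 and Ciita, as for Irf8, the IFNa arrays overlapped the untreated arrays and the IFNg arrays lay above all others.

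**Figure D3:**
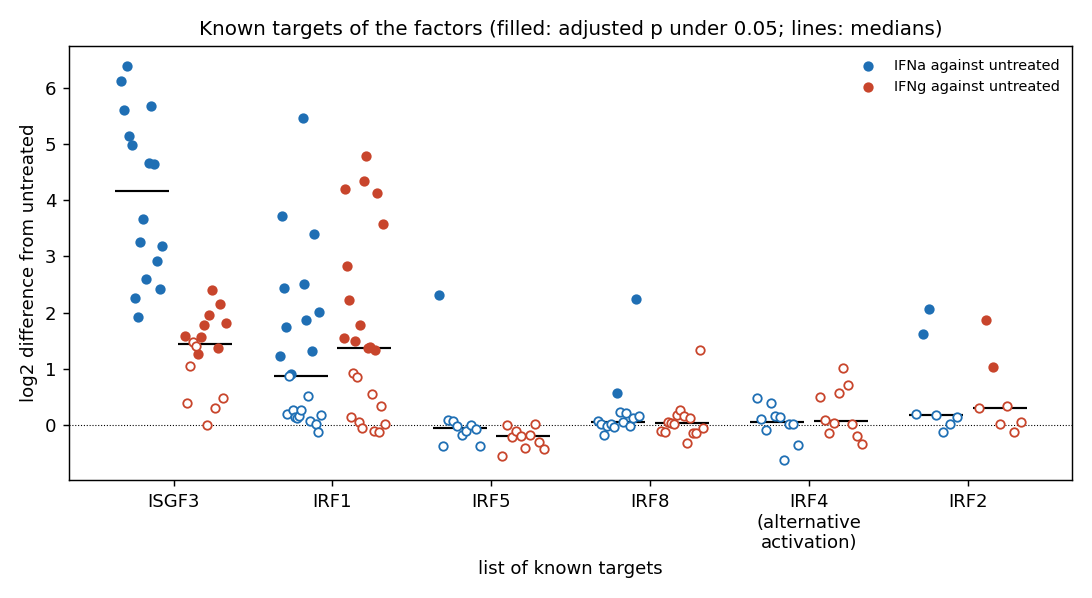
Log2 difference from untreated of the known targets of the factors, 1 point per gene, filled where the limma adjusted p was under 0.05, with lines at the medians. Targets of ISGF3 had a median of 4.16 after IFNa and 1.44 after IFNg, targets of IRF1 0.87 and 1.38, and the other lists had medians between -0.20 and 0.31.

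Targets listed for the other factors are given beside the same background. Of all genes, 2.65% were called after IFNa, 1.35% after IFNg and 0.977% between the interferons. Of 10 targets of IRF5, Il6 alone rose after IFNa (2.31 ± 0.29, limma adjusted p = 0.0018) and none after IFNg (1 at an unadjusted p under 0.05; medians -0.05 and -0.20). Il6 read 65.4 to 142 in untreated samples, 378 to 740 after IFNa and 66.4 to 67.7 after IFNg. Tnf did not pass after either interferon (-0.37 ± 0.13 and -0.0040 ± 0.15, limma adjusted p = 0.233 and 0.994), and the sign of its IFNg value turned under median centring (0.04). Of 14 targets of IRF8 none was called after IFNg, where Irf8 rose (1 at an unadjusted p under 0.05), and 2 after IFNa, Il18 (2.24 ± 0.28, limma adjusted p = 0.00172) and Cfb (0.57 ± 0.13, limma adjusted p = 0.05, just under the threshold before rounding), with medians of 0.06 and 0.03. Without the narrow arrays Il18 was also called after IFNg (0.97, adjusted p = 0.0110), and Cfb was not called after IFNa. The Cfb call was lost in 8 of the 9 analyses that left out 1 array, all but that without untreated replicate 3. Il12b, a target shared by IRF1, IRF5 and IRF8, read 93.9 to 141 over all arrays, with differences of 0.07 ± 0.15 and -0.11 ± 0.18 (limma adjusted p = 0.946 and 0.854). None of 10 genes of IRF4-dependent alternative activation was called against untreated in limma (medians 0.06 and 0.07), with 2 after IFNa and 3 after IFNg at an unadjusted p under 0.05. Between the interferons the histone demethylase gene Kdm6b was higher after IFNg (-1.34 ± 0.19, limma adjusted p = 0.0093), a call lost without either IFNg array (adjusted p = 0.198 without replicate 2). Of 7 genes that IRF2 is reported to hold back or drive, Tlr3 and Casp4 rose after IFNa (2.07 ± 0.15 and 1.62 ± 0.27) and after IFNg (1.03 ± 0.17 and 1.87 ± 0.32), with medians of 0.17 and 0.31, and neither call after IFNg held without IFNg replicate 1 (adjusted p = 0.297 and 0.217) or replicate 2, nor that of Tlr3 without untreated replicate 1 (0.0502).

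Genes whose levels followed the 3 called members most closely are given as a description, since the arrays share their groups. With Irf1 these were Tmem106a (r = 0.994 over the 9 arrays), Il18bp (0.990), the gene of an interleukin-18 inhibitor, and Prr5l (0.989). With Irf7 they were Phf11d (0.996), Usp18 (0.994) and Phf11a (0.994). With Irf8 they were the cytokine receptor gene Csf2rb (0.985), B4galt3 (0.985) and Csf2rb2 (0.981), where the near-identical copies Csf2rb and Csf2rb2 may share probe signal. Csf2rb differed by -0.01 after IFNa and 1.34 after IFNg, and B4galt3 by 0.02 and 1.53.

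**Figure D4:**
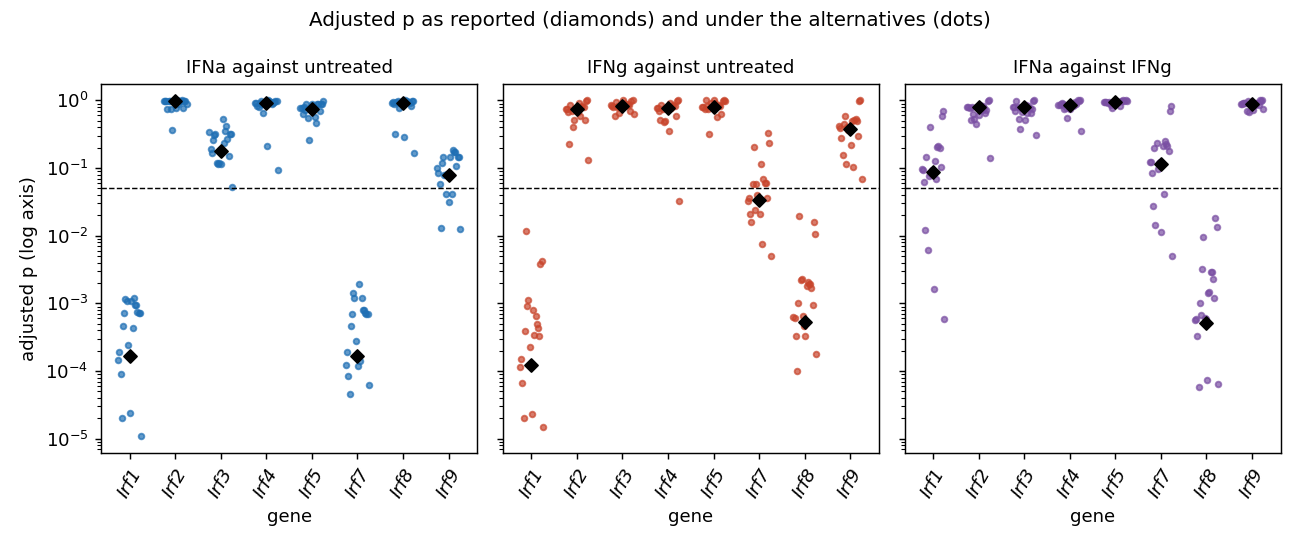
Limma adjusted p of each interferon regulatory factor as reported (diamonds) and in the 20 alternative analyses (dots) on a log axis, with a dashed line at 0.05. Irf1 and Irf7 after IFNa, Irf1 and Irf8 after IFNg and Irf8 between the interferons stayed under the line in all 20. Irf7 after IFNg (11 of 20 under the line) and Irf9 after IFNa (5 of 20) lay on both sides. So did Irf7 (5 of 20) and Irf1 (4 of 20) between the interferons and Irf4 after IFNg (1 of 20).

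Markers of the sorted cells and of others were set beside these levels. The samples are bulk RNA, in which fewer cells of a type and less RNA per cell cannot be told apart. No marker was listed at 0. The summed intensity of 14 large peritoneal macrophage markers was 98753 to 104091 in untreated samples, 94022 to 98487 after IFNa and 95411 to 100239 after IFNg. Among them Gata6, the factor of this macrophage type, was lower after IFNa (-1.05, limma adjusted p = 0.00997) and after IFNg (-1.16, limma adjusted p = 0.0242). Neither call held without untreated replicate 2 (adjusted p = 0.0641 and 0.114), and that after IFNg was also lost without untreated replicate 3 or either IFNg array. For 13 markers of small macrophages, monocytes and dendritic cells, which also express Irf8 and Irf4, the sums were 4085 to 4733, 3859 to 4442 and 4628 to 4966 in the same order, and Plac8 alone was called (1.00 after IFNa), a call lost without untreated replicate 2 or IFNa replicate 2.

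Lymphocytes express Irf4 and Irf8 too. The sum of 9 B cell markers was 1469 to 1587 in untreated samples, 1308 to 3254 after IFNa and 1071 to 1098 after IFNg. IFNa replicate 2 gave the 3254 and was the highest array for 8 of the 9 markers, and its Irf4 level of 467 was the highest of the IFNa group. The part of B cell RNA in that level was not tested, and no member call of the IFNa comparison was lost without that array. The 5 plasma cell markers summed to 3591 to 5070, 4997 to 5608 and 5350 to 5757, of which Xbp1, a gene of secretory and stressed cells in general, made up 91.9%, and the other 4 summed to 350 to 439, 389 to 467 and 422 to 467. Among these, Prdm1, itself a regulator of macrophages, was called after IFNg (1.10), but not without IFNg replicate 2 (adjusted p = 0.081). The 9 T and NK cell markers summed to 583 to 786, 549 to 792 and 588 to 590, with no limma call and 0 markers at an unadjusted p under 0.05. The 10 neutrophil, eosinophil and mast cell markers summed to 3300 to 3412 in untreated samples, 2434 to 2720 after IFNa and 2514 to 2821 after IFNg, and Csf3r, the receptor gene for granulocyte colony-stimulating factor, made up 73.9% of the sum. Csf3r read 2440 to 2692, 1522 to 2004 and 1830 to 2140 in the same order, while the other 9 summed to 719 to 860, 688 to 912 and 682 to 685. No marker of this list was called in limma, with 3 at an unadjusted p under 0.05 in each comparison with untreated, and without the narrow arrays Csf3r was called lower after IFNa (-0.47, adjusted p = 0.0355). Their part in the results was not tested.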

How the data were processed

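Total RNA of sorted peritoneal macrophages was hybridised to single-colour Affymetrix whole-transcript arrays after biotin labelling, per the labels. Affymetrix Power Tools and RMA are listed without version in the submitters' processing notes, and which arrays were normalized together is not given in the sources used here. The deposited table gives 1 linear RMA intensity for each probe set on each array. Arrays give no read depth, and their number limits the precision.

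Each gene was read at its brightest probe set with a single symbol in the platform table (21425 of 24922 probe sets had 1 symbol, 1399 several and 2098 none), which left 19752 genes with no filter on dim values. The log2 values of all 9 arrays were fitted with 3 group means in limma 3.58.1 (R 4.3.3, lmFit and eBayes), so the 2 IFNg arrays were taken to vary like the others. P-values were two-sided, with Benjamini-Hochberg adjustment over all genes. The fit was also run on simulated data, in which each gene had independent errors of equal spread on all 9 arrays. Those data held no arrays of narrow range, so they cannot show how such arrays affect the calls. Python 3.11.15, pandas 2.3.3, NumPy 2.4.6 and Matplotlib 3.10.9 did the rest.

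The members and lists were chosen with earlier results of these data known. Named were all members, up to 5 called genes of smallest p per list in each comparison with untreated, 6 genes of interest (Stat2, Ifnb1, Ciita, Il12b, Tnf and Spi1) and the 3 genes most correlated with each called member. Tbkbp1, Kdm6b, Batf, Stat3, Ifngr2, Irf2bp1, Socs1 and Il15 were named after their values were seen. So were the cell markers Adgre1, Icam2, Gata6, Plac8, Prdm1, Xbp1 and Csf3r. The 20 alternatives changed the variance model, normalization, dim-gene filter (dimmest 30% left out), samples, replicate block, pseudocount (16) or probe set choice, left out each array in turn, or left out both arrays of narrow range. An adjusted p under 0.01 or a 2-fold minimum was also tried for the counts.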

Additional observations from a re-analysis of the deposited data

Results flagged for a closer look

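In the IFNa group 47 of the genes in the report were examined for a single array far from the other 3, a rule that chance meets in about 1 of 20 groups. Only Ifnb1 and Rsad2 met it, a share near that of chance. Ifnb1 read 59.5, 61.2 and 59.5 on the first 3 arrays and 81.4 on IFNa replicate 4, a gap of 0.912 of the group's range in log2 values. Rsad2 met it on the same array, with 8265, 8058 and 8128 against 10415, a gap of 0.901 of the range in log2 values. IFNa replicate 4 is an array of narrow intensity range, whose part in these values was not tested.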

How the results depend on the processing

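The calls of Irf1 and Irf7 after IFNa, of Irf1 and Irf8 after IFNg and of Irf8 between the interferons held in all 20 alternatives. Over all genes 523 were called after IFNa, against 921 under quantile normalization, 827 and 924 with title or description numbers as a replicate block, 1106 without both narrow arrays, 278 at an adjusted p under 0.01, 293 with a 2-fold minimum and 288 to 600 with 1 array left out. After IFNg 267 were called, against 119 with only the 2 groups fitted, 699 with the title block, 503 without both narrow arrays, 131 at an adjusted p under 0.01 and 80 to 391 with 1 array left out. Between the interferons 193 were called, against 542 without both narrow arrays, 90 at an adjusted p under 0.01 and 42 to 276 with 1 array left out, and members called there numbered 3 in place of 1 under quantile normalization, with only the 2 groups and without both narrow arrays, and 1 to 3 with 1 array left out. Quantile normalization moved the share of calls that were higher from 67.7% to 54.3% after IFNa, from 91.8% to 77.5% after IFNg and from 45.1% to 58.0% between the interferons, and without the narrow arrays the first 2 shares were 42.3% and 71.2%. The cause was not tested.

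Values near 0 changed sign. After IFNa these were Irf2 (-0.0883 under quantile normalization, -0.0440 without the narrow arrays, -0.12 to 0.0934 with 1 array left out), Irf4 (0.15, description block), Irf8 (0.0188, description block, and -0.28 to 0.0306 with 1 array left out), Ifnb1 (-0.0309 with the title block, -0.0672 with the description block, -0.0330 without the narrow arrays, -0.0309 to 0.13 with 1 array left out), Ciita (-0.0422, description block) and Il12b (-0.0199 and -0.14 with the blocks, -0.0199 to 0.18 with 1 array left out). After IFNg these were Irf5 (-0.0016) and Ifnb1 (0.0608) under quantile normalization, Tnf (0.0372 under median centring, 0.0740 with the title block, -0.12 to 0.11 with 1 array left out) and Spi1 (-0.0729 under quantile normalization, -0.0152 with the description block, -0.11 without the narrow arrays, -0.11 to 0.15 with 1 array left out). Between the interferons it was Irf5 (-0.0923 with the title block, -0.0303 without the narrow arrays, -0.0303 to 0.17 with 1 array left out). The labels do not say whether equal replicate numbers mark paired samples, and the values could not decide it. Deviations from the group means correlated above 0.1 for 3 of 7 same-numbered pairs by title (r from -0.21 to 0.60). By description it was 1 of 6 (-0.44 to 0.11), and pairs of other numbers ran from -0.61 to 0.61. The 2 IFNg arrays deviate by equal and opposite amounts, so their correlations with any array differ in sign alone. With the description block Irf9 after IFNa passed (1.11, adjusted p = 0.0419) and Irf7 after IFNg did not (1.59, adjusted p = 0.0579), and no other member call changed with either block. With 2 IFNg arrays, leaving 1 out tests the remaining array against a spread estimated in the other groups.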

Other observations

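On untreated replicate 1 all 8 members, at their brightest probe sets, were lowest of the untreated samples, but the dimmer Irf1 probe set was highest. The known targets of ISGF3 were low on that array too. After quantile normalization their median distance from the mean of the other untreated arrays was -0.74, and 12 of 16 (75%) were lower than on both of those arrays, beside 38.4% of all genes. Without Irf7, which is also a member, 11 of 15 were lower and the median was -0.69. The regulators of IRF protein level (5 of 8, 62.5%) and the STAT and receptor partners (5 of 9, 55.6%) had smaller median distances of -0.10 and -0.08. For the known targets of IRF1 the median distance was -0.05, with 12 of 23 lower than on both, and for the interferon genes it was 0.24, with 3 of 15.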
